A study of Homo sapiens with 8 samples.

Results

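Metabolic enzyme and solute carrier genes were chosen by their symbols from 2 deposited lists of candidate acetylated RNA sites, and 39 of the 1506 listed genes matched. The symbol families were SLC, ACAA, ACAT, ACBD, HADH, MDH, ALDH, PRDX, GST, GPX, PFK, ENO and HK, with GPI, TPI1 and AASS added by name, and 5 genes match by symbol although their products act otherwise. The matches comprise 7 glycolytic enzymes, 9 mitochondrial and lipid enzymes, 3 redox enzymes and 20 solute carriers. The lists come from H1, an established human embryonic stem cell line, profiled by chemical ac4C sequencing in 8 libraries that form 4 groups of 2. NAT10 KD cells carried a lentiviral shRNA against NAT10 with GFP. After 48 h they were enriched for GFP and expanded in TeSR-E8 medium under 0.5 µg/ml puromycin. WT cells were H1 cells grown in PGM1 medium on Matrigel, and the labels name no control shRNA, so knockdown, transduction, selection and medium cannot be told apart. Each genotype gave RNA treated with NaCNBH3 and untreated input. Each list holds, per site, a position in hg38, a strand, a gene and a score of the authors' own. The lists hold no read counts, conversion levels or replicate values, so depth is unknown and no site has a replicate error. Absence from a list does not mean absence of ac4C.

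N4-acetylcytidine (ac4C) is written into RNA by the acetyltransferase NAT10. Reduction with NaCNBH3 makes reverse transcriptase misread it, so it appears as a C-to-T change against the input. Embryonic stem cells in the primed state depend strongly on glycolysis. Glucose enters through the transporter encoded by SLC2A1, is phosphorylated by hexokinases and split into triose phosphates, and lactate leaves through the carrier encoded by SLC16A1. SLC25 carriers move metabolites across the inner mitochondrial membrane, SLC7, SLC38 and SLC43 carriers move amino acids, and peroxiredoxins and glutathione peroxidases reduce peroxides.

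The NAT10 KD list held 950 sites and the WT list 1005. NAT10 itself had 0 sites in either list, and how much NAT10 was left in the knockdown was not analysed here. Of 8 pluripotency markers, 5 had a site in the NAT10 KD list and 5 in the WT list. A further 13 genes were taken as markers of trophoblast, epithelial or differentiated cells, though some may not be specific to them. Of these, 2 had a site in NAT10 KD (TUBB3 and THY1) and 2 in WT (KRT8 and THY1). A listed site is not an expression level, so these counts do not measure cell identity.

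Reference sequence could be read at 7 of the 50 distinct sites in these genes, those that fall in a RefSeq window around an annotated gene start (build GRCh38.p14). They are shown because they place the listed position in its RNA-strand context. Each runs 5′ to 3′ on the strand of the site, written as DNA, and the capital marks the listed position.
PRDX5, both lists, chr11:64318295-64318323, plus strand: cagcggcagcaagaCggtacagtgaagga
SLC2A1, NAT10 KD, chr1:42958799-42958818, minus strand: cccgagtgagcacgCcaggg
AASS, NAT10 KD, chr7:122144164-122144190, minus strand: gggacaagtcggcgCcccagagcggac
AASS, WT, chr7:122144164-122144192, minus strand: gggggacaagtcggCgccccagagcggac
SLC25A4, NAT10 KD, chr4:185143299-185143315, plus strand: gcggcggtgccaggCcg
SLC25A11, NAT10 KD, chr17:4939867-4939895, minus strand: agtgccggggccggCgggatagacgggaa
SLC22A17, NAT10 KD, chr14:23352883-23352911, minus strand: ggaggggaaagcagCgcagagatcgcaga

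All 7 listed positions were a C on the strand of the site. The same held for the 94 of 1851 distinct sites of the whole series that could be read, of which 94 were C (exact 95% Clopper-Pearson lower bound 96.2%). Because ac4C is read as a C-to-T change, a called site has to be a C. These counts therefore check only that position and strand were read correctly. None of the 7 was the middle base of CCG, the context often described for NAT10 (0 of 7, exact interval 0 to 41.0%). Among all readable sites with both neighbours known, 9 of 92 were in CCG (9.78%, exact interval 4.57 to 17.8). For comparison, 7.38% of the C bases among the 50 bases after the start in 34943 RefSeq windows had this context, read on the strand of the gene, and 51.4% of those stretches held the letters CCG somewhere. Of the 7 sites, those of PRDX5 (23 bases after the nearest annotated start of the gene) and SLC25A4 (47) lie in such a stretch. Those of SLC2A1 (64), AASS (73 in NAT10 KD, 71 in WT), SLC25A11 (165) and SLC22A17 (-10) lie outside it, so the regions differ. The 3 sites in SLC22A17, SLC25A11 and, in WT, AASS followed and preceded a G. The AASS sites of the 2 genotypes are the C bases on either side of one G, 2 bp apart.

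The first comparison asked how many of these genes carried a listed site in each genotype. The NAT10 KD list had 26 sites in 22 of them and the WT list 27 sites in 26, which is 2.74% of the NAT10 KD sites and 2.69% of the WT sites. The ratio of sites was 0.963 (exact binomial 95% interval 0.540 to 1.71), with 0.945 over all listed sites. Intervals here cover counting error only and treat sites as independent, which neighbouring sites of a gene are not. Of the 39 genes, 9 were in both lists, or 23.1% (exact interval 11.1 to 39.3), against 14.7% of all listed genes. A further 13 were in NAT10 KD only and 17 in WT only.

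Glycolysis had 3 genes in NAT10 KD and 6 in WT, and mitochondrial and lipid enzymes had 5 in each. Redox enzymes had 2 in each list, and solute carriers 12 in NAT10 KD and 13 in WT. The site ratio was 0.429 for glycolysis (exact interval 0.0715 to 1.88) and 1.15 for solute carriers (0.512 to 2.63). Both intervals include equal numbers but are too wide to decide whether the genotypes differed.

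**Figure D1:**
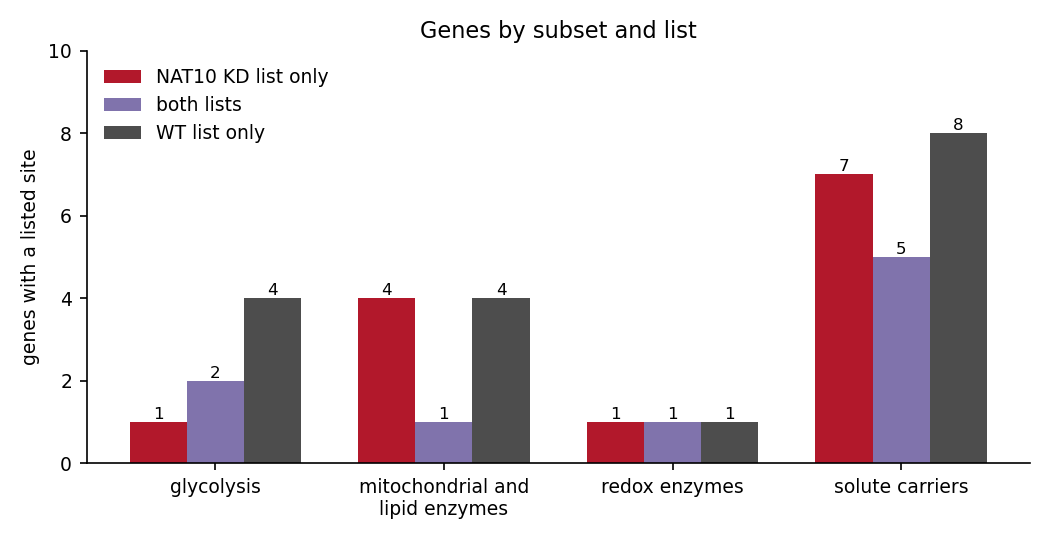
Bars count the genes of each subset (horizontal axis) with a listed site in NAT10 KD only, in both lists or in WT only. Solute carriers were the largest subset, with 7, 5 and 8 genes.

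Of 18 glycolytic genes, 3 had a site in NAT10 KD and 6 in WT, and the enzyme genes GAPDH, PGK1, PGAM1, PKM, LDHA and LDHB had none in either list. The listed enzymes had low scores. HK1 and HK2 encode hexokinases, which phosphorylate glucose. HK1 had 1 NAT10 KD site (chromosome 10, position 69392264, plus strand, score 1.43) and 2 WT sites at positions 69364806 (1.39) and 69368570 (1.80), the nearer of them 23694 bp from the NAT10 KD site. HK2 was in WT only, at position 74854419 of chromosome 2, plus strand, with 1.54. TPI1, which interconverts the triose phosphates, was listed in NAT10 KD at 6870073 on chromosome 12 (plus strand, 1.53), and in WT at 6870675 (1.73), 602 bp downstream. The enolase gene ENO1 was in NAT10 KD only (chromosome 1, position 8861161, minus strand, 1.62), and the enolase gene ENO2 in WT only (chromosome 12, position 6922106, plus strand, 1.68). GPI, the isomerase of glucose 6-phosphate, scored 1.38 in WT (chromosome 19, position 34399262, plus strand), and the phosphofructokinase gene PFKP 1.38 (chromosome 10, position 3113467, plus strand). All 10 glycolytic sites scored below 2, as did 647 of all 950 NAT10 KD sites and 666 of all 1005 WT sites. None was at the same position in both lists, where 5.62% of all distinct sites were, which for 10 sites is fewer than 1. ENO1 and TPI1 have 4 pseudogenes each named after them and HK2 has 1, whose reads can be placed on the parent gene.

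Among mitochondrial and lipid enzymes, the sites of AASS came closest across genotypes. AASS encodes the bifunctional enzyme that starts lysine breakdown in mitochondria. Its NAT10 KD sites lay at positions 122144176 (2.16) and 122076009 (2.13) of chromosome 7, minus strand, at opposite ends of the gene. Its WT site at 122144178 scored 1.96. The other genes were each in a single list. NAT10 KD held ACAT1, the mitochondrial acetoacetyl-CoA thiolase (chromosome 11, position 108138911, plus strand, 2.02), and HADH, a dehydrogenase of fatty acid oxidation (chromosome 4, position 108034318, 1.63). It also held ACBD6 (chromosome 1, position 180502474, minus strand, 1.89), an acyl-CoA-binding protein, and the Golgi scaffold gene ACBD3 (position 226152348, 1.67), both of which belong by name. WT held the cytosolic malate dehydrogenase gene MDH1 (chromosome 2, position 63604854, plus strand, 1.62) and the cytosolic thiolase gene ACAT2 (chromosome 6, position 159776234, plus strand, 1.45). The mitochondrial aldehyde dehydrogenase gene ALDH2 (chromosome 12, position 111792121, plus strand, 1.42) and the thiolase gene ACAA2 (chromosome 18, position 49783910, minus strand, 1.39) completed the WT sites. Of these enzymes, 3 of 6 sites reached a score of 2 in NAT10 KD, including those of AASS, and 0 of 5 in WT. Over all sites the shares were 31.9% in NAT10 KD and 33.7% in WT, and with so few sites the genotypes were not compared.

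PRDX5, a peroxiredoxin found in mitochondria, peroxisomes and the cytosol, had the highest score of all 39 genes in both lists. Its site at position 64318309 of chromosome 11, plus strand, scored 22.2 in NAT10 KD, rank 10 of that list, and 29.9 in WT, rank 8. It lies 188 bases inside the gene's span and 23 bases after the nearest annotated start of PRDX5. The site also lies over TRMT112, annotated at the same place, and 1 pseudogene is named after PRDX5. GPX4, which reduces lipid hydroperoxides, was in NAT10 KD only (chromosome 19, position 1106384, plus strand, 1.54). The glutathione transferase gene GSTK1 was in WT only (chromosome 7, position 143267678, plus strand, 1.64).

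Some sites lay over a further annotated gene, 2 of 26 in NAT10 KD and 5 of 27 in WT. Over the whole lists, 116 of 950 NAT10 KD sites and 122 of 1005 WT sites did. Among the genes described here they were the sites of PRDX5 in both lists, of ACBD3 in NAT10 KD, and of MDH1, GSTK1, SLC25A15 and SLC9A3R1 in WT.

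**Figure D2:**
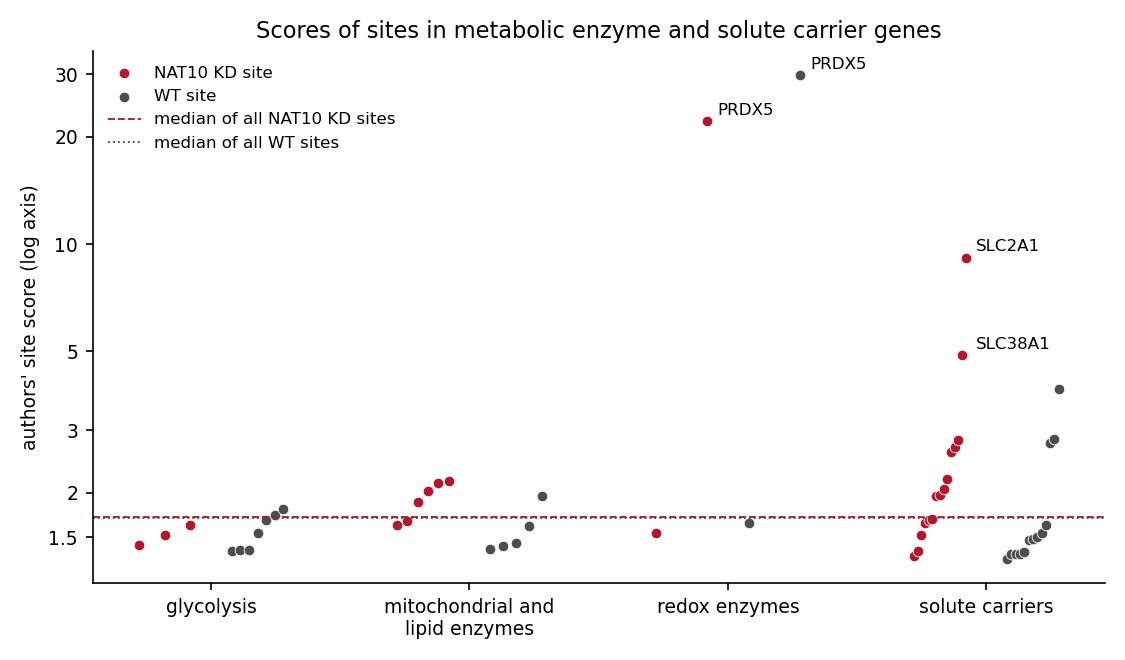
Each point is a site, placed by the authors' score (log axis) and subset, with NAT10 KD left of WT; lines are the medians of all sites per list, 1.72 in NAT10 KD and 1.70 in WT. PRDX5 stands highest in both lists, and SLC2A1 and SLC38A1 lead the other NAT10 KD sites.

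SLC2A1, a widely expressed glucose transporter, had 3 NAT10 KD sites within 23 bp of each other, close to its annotated start on chromosome 1, minus strand. They lay at positions 42958781 (9.16), 42958784 (1.52) and 42958804 (1.95). The WT list had a single SLC2A1 site at position 42929736, with 1.35, which is 29045 bp from the nearest of them and in the 3′ part of the gene. SLC16A1, the lactate and pyruvate carrier, had the same site in both lists (chromosome 1, position 112956140, minus strand), at 2.05 in NAT10 KD and 2.83 in WT. The sugar and lactate carriers thus had NAT10 KD sites at the start of the gene, and of the pair only SLC16A1 had a WT site there.

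SLC7A5, which imports large neutral amino acids, shared the site at position 87869375 of chromosome 16, minus strand, with scores of 2.61 in NAT10 KD and 2.77 in WT. A further NAT10 KD site lay 65 bp away at position 87869310 (2.18). The related exchanger SLC7A8 was in WT only, at position 23183565 of chromosome 14, minus strand, with 3.92. SLC38A1, a glutamine and neutral amino acid carrier, had its sites near the 3′ end in both genotypes. The NAT10 KD site at position 46183520 of chromosome 12, minus strand, scored 4.87, and the WT site 5472 bp away at 46188992 scored 1.30. NAT10 KD alone held SLC38A10 (chromosome 17, position 81246610, minus strand, 2.81), the amino acid carrier gene SLC43A1 (1.68) and the taurine transporter gene SLC6A6 (1.64).

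Among the mitochondrial carriers, NAT10 KD held SLC25A11, the 2-oxoglutarate and malate carrier (chromosome 17, position 4939881, minus strand, 2.7), SLC25A4, which exchanges ADP and ATP (chromosome 4, position 185143313, plus strand, 1.97), and the citrate carrier gene SLC25A1 (1.69). WT held the ornithine carrier gene SLC25A15 (chromosome 13, position 40810062, plus strand, 1.63), the pyrimidine nucleotide carrier gene SLC25A33 (chromosome 1, position 9539681, plus strand, 1.54) and SLC25A38, a glycine carrier needed for heme synthesis (1.48). None of the 6 was in both lists, where 14.7% of all listed genes were, which for 6 genes is fewer than 1. The zinc importer genes SLC39A1 (1.48) and SLC39A14 (1.34) were in WT only. SLC35E3, of the nucleotide sugar transporter family, was in both lists at positions 68760616 (1.38) in NAT10 KD and 68768211 (1.37) in WT of chromosome 12, plus strand. By symbol the solute carriers also take in the lipocalin receptor gene SLC22A17 (1.33) in NAT10 KD, and in WT the acyl-CoA synthetase gene SLC27A5 (1.5) and SLC9A3R1 (1.34), a scaffold now named NHERF1. SLC25A1 and SLC25A15 have 5 pseudogenes each named after them.

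The second comparison asked whether the genotypes shared positions. Sites at the same position and strand in both lists numbered 3 of 50 distinct ones, or 6% (exact interval 1.25 to 16.5), against 5.62% of all 1851 distinct sites. They were those of PRDX5, SLC16A1 and SLC7A5. Each scored lower in NAT10 KD than in WT, and how many of all 104 shared sites did so was not counted. A score is not a stoichiometry, so these pairs measure no change in acetylation. All 3 genes have pseudogenes named after them (1, 1 and 2). Without the 13 genes of this kind the shared sites were 0 of 35, while 61 of 1331 remained shared over all listed genes (4.58%). The role of these copies was not tested. The other 6 genes in both lists had sites at different positions, 2 bp apart in AASS and at least 602 bp apart in TPI1, SLC38A1, SLC35E3, HK1 and SLC2A1.

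**Figure D3:**
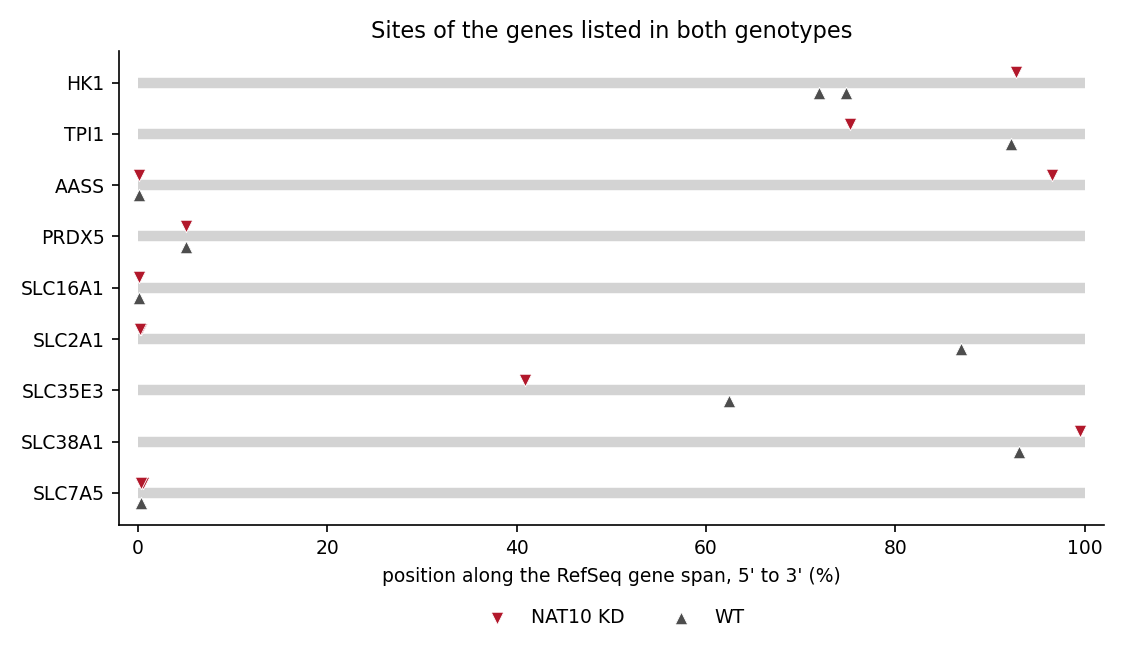
Each grey bar is the RefSeq span of a gene in both lists from its 5′ end (0%) to its 3′ end (100%), with NAT10 KD sites above and WT sites below. Sites of PRDX5, SLC16A1 and SLC7A5 coincide near the 5′ end, those of AASS are 2 bp apart there, and those of SLC2A1 lie at opposite ends.

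Most scores were near the lower end of each list. The median was 1.92 in NAT10 KD (26 sites, range 1.33 to 22.2) and 1.5 in WT (27 sites, 1.30 to 29.9), beside 1.72 over all NAT10 KD sites and 1.70 over all WT sites. A score of 2 or more was reached by 11 of 26 sites in NAT10 KD (42.3%) and 4 of 27 in WT (14.8%), with 31.9% of all NAT10 KD sites and 33.7% of all WT sites. The 4 WT sites were those of PRDX5, SLC7A8, SLC16A1 and SLC7A5.

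The last comparison asked where along the gene the sites lay. In NAT10 KD, 14 of 26 sites lay within 250 bases of the start of the gene's RefSeq span, or 53.8% (exact interval 33.4 to 73.4), against 14.3% of 935 sites over the whole NAT10 KD list. In WT, 6 of 27 did, or 22.2% (8.62 to 42.3), against 14.2% of 993 sites over the whole WT list. The NAT10 KD interval lies above the share of the whole NAT10 KD list, the WT interval spans that of the whole WT list, and the intervals of the genotypes overlap. The order of the genotypes turned with a score minimum of 1 above the lowest score, where 4 of 6 NAT10 KD sites (66.7%) and 4 of 4 WT sites (100%) lay this near. The genotypes were not tested against each other, and the distance of 250 bases was set after the values were seen. The next NAT10 KD site, in GPX4, lay 2390 bases from the start, and the next WT site, in SLC9A3R1, 416 bases. Counted once per gene, the shares were 50% of 22 genes in NAT10 KD and 23.1% of 26 in WT. Over all genes they were 14.6% in the NAT10 KD list and 15.2% in the WT list. Some genes have an annotated start nearer to the site than the start of the span. Measured from the nearest annotated start, the shares were 50% of 24 sites in NAT10 KD and 21.7% of 23 in WT. Over all sites they were then 17.3% in NAT10 KD and 16.7% in WT.

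Solute carriers made up most of this group. In NAT10 KD, 11 of their 15 sites, in 8 of 12 genes, lay within 250 bases of the start (73.3%, exact interval 44.9 to 92.2), and in WT 4 of 13 (30.8%, 9.09 to 61.4). The NAT10 KD sites nearest to the start were those of SLC22A17, 10 bases before it, SLC25A4 at 47 bases and SLC16A1 at 56. The sites of SLC2A1 followed at 64, 84 and 87 bases, SLC25A1 at 94, SLC7A5 at 132 and 197, SLC25A11 at 165 and SLC6A6 at 178. WT had SLC16A1 at 56 bases, SLC7A8 at 95, SLC7A5 at 132 and SLC25A33 at 216. Outside the carriers, the sites within this distance were those of AASS at 73 bases, ACBD6 at 103 and PRDX5 at 188 in NAT10 KD, and of AASS at 71 and PRDX5 at 188 in WT. No glycolytic site lay so near, 0 of 3 in NAT10 KD and 0 of 7 in WT, and the nearest were those of TPI1 at 2653 and 3255 bases. From the nearest annotated start, these TPI1 sites lay 1968 bases away in NAT10 KD and 2570 in WT. The exact intervals of these glycolytic shares, 0 to 70.8% in NAT10 KD and 0 to 41.0% in WT, include the shares of the whole lists (14.3% and 14.2%).

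**Figure D4:**
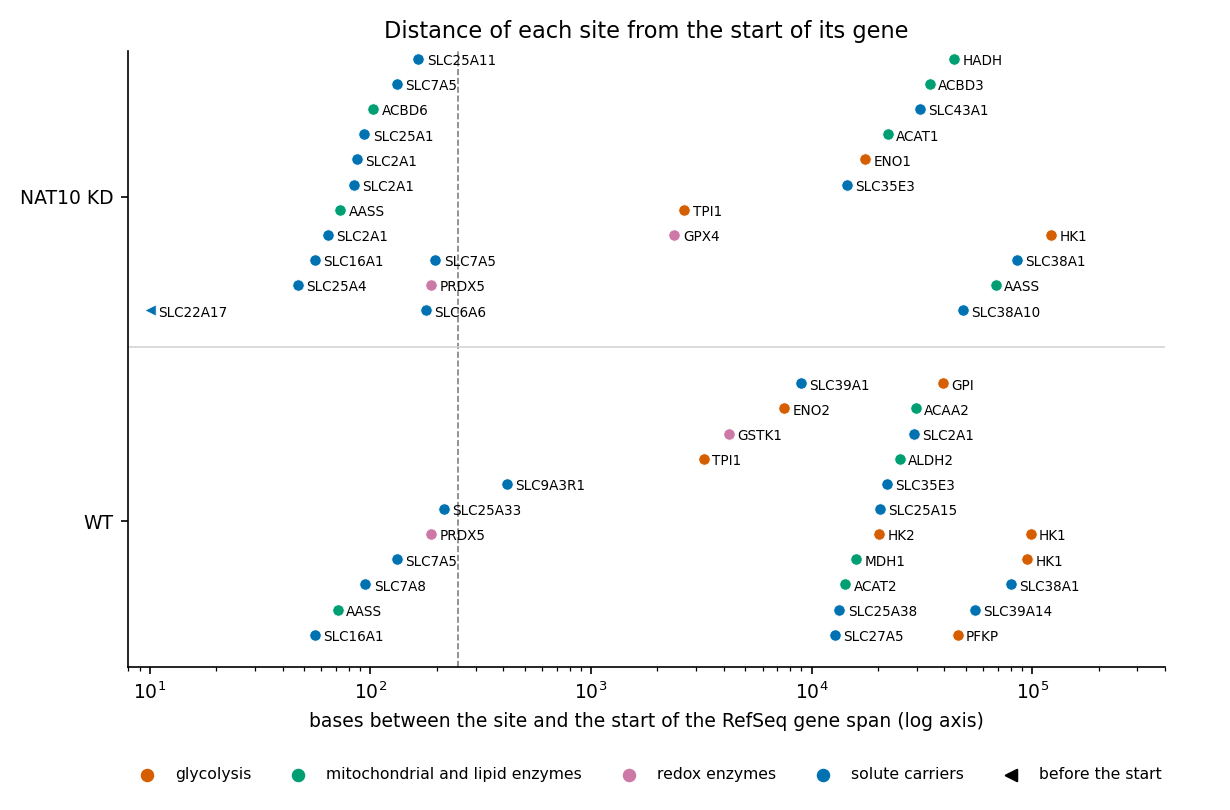
Each point is a site, placed by its distance in bases from the start of its gene (log axis; the arrowhead lies before the start), NAT10 KD above WT, coloured by subset and spread vertically for legibility. Left of the dashed line at 250 bases are 14 NAT10 KD sites and 6 WT sites.

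In 5 of the 8 NAT10 KD solute carrier genes with a site this near the start, the WT list held no site in the gene at all, which is no larger a share than the 73.7% of all 845 NAT10 KD genes that were absent from the WT list. These were SLC22A17, SLC25A1, SLC25A4, SLC25A11 and SLC6A6. Where a gene was in both lists, the near-start site was present in WT too for AASS (2 bp away), PRDX5, SLC16A1 and SLC7A5, and absent there for SLC2A1. Without the genes in both lists, 6 of 13 NAT10 KD sites and 2 of 17 WT sites lay within 250 bases of the start. The exact intervals, 19.2 to 74.9% in NAT10 KD and 1.46 to 36.4% in WT, overlap. The same share over all sites of such genes was not computed. Whether genes are read more deeply at their starts in one genotype was not analysed here.

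Of the 25 NAT10 KD sites inside a span, 13 were in the first 20% of it, 3 in the middle and 9 beyond 80%. Of the 27 WT sites, 7 were in the first 20%, 7 in the middle and 13 beyond 80%. Over all sites, 25.0% in NAT10 KD and 26.8% in WT were in the first 20%, and 34.1% in NAT10 KD and 29.5% in WT beyond 80%. The 9 NAT10 KD sites beyond 80% and the 7 WT sites in the first 20% are close to those shares. The median position was 5.66% of the span in NAT10 KD (order-statistic 95% interval 0.334 to 85.8) and 74.7% in WT (34.3 to 89.5), beside 62.6% over all NAT10 KD sites and 56.9% over all WT sites. These intervals overlap, and with the score minimum the order turned, with medians of 5.38% in NAT10 KD and 0.249% in WT. ENO1 (161 bases from the end of the span), SLC43A1 (152) and SLC38A1 (457) in NAT10 KD, and SLC39A1 (147), TPI1 (273) and SLC25A38 (610) in WT, were among the sites nearest the 3′ end. Exons, introns and untranslated regions are not in the annotation used here.

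**Figure D5:**
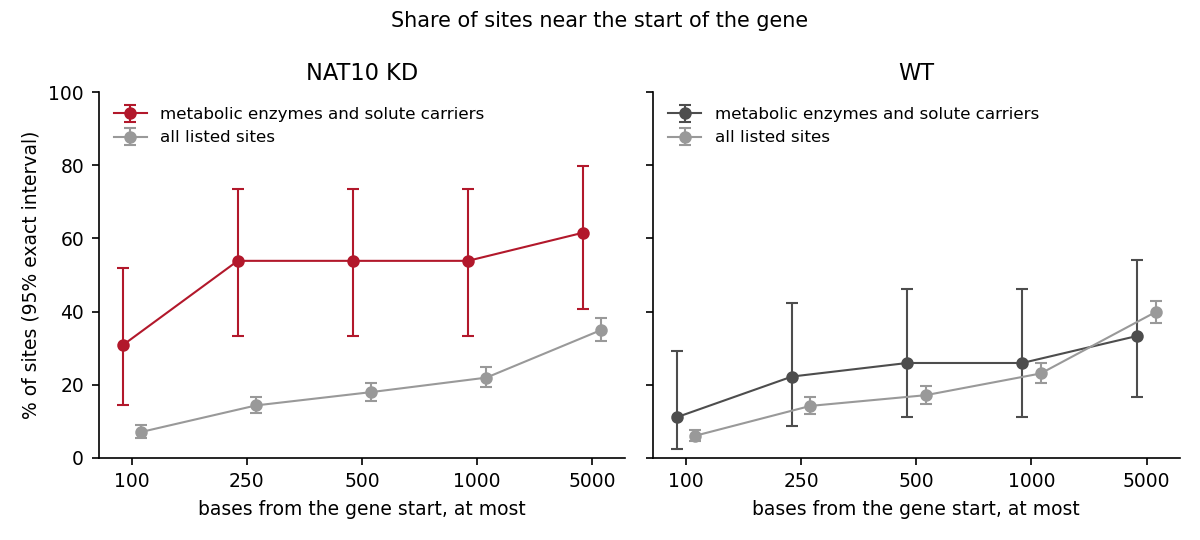
Points give the percentage of sites within the stated number of bases of the gene start for these genes and for all listed sites, NAT10 KD left and WT right; bars are exact 95% intervals. At 250 bases the values are 53.8% and 14.3% in NAT10 KD and 22.2% and 14.2% in WT.

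Genes of neighbouring pathways that the symbols did not take in were counted in the same way. Glucose and pyruvate metabolism had 2 of 30 genes in NAT10 KD and 6 in WT, the tricarboxylic acid cycle 4 of 15 in NAT10 KD and 1 in WT, and fatty acid oxidation and synthesis 3 of 27 in NAT10 KD and 4 in WT. Cholesterol synthesis had 4 of 23 genes in NAT10 KD and 3 in WT, amino acid and one-carbon metabolism 4 of 32 in NAT10 KD and 3 in WT, and nucleotide synthesis 2 of 27 in NAT10 KD and 3 in WT. Other redox genes numbered 3 of 30 in NAT10 KD and 3 in WT, and other membrane transporters 2 of 32 in NAT10 KD and 4 in WT. The ratio of genes was 0.957 over the whole lists, and the exact intervals of all 8 pathways include it. They run, for example, from 0.0329 to 1.86 for glucose and pyruvate metabolism and from 0.396 to 197 for the tricarboxylic acid cycle. With intervals this wide, the counts cannot decide whether a pathway differed between genotypes. Genes in both lists also enter both counts, which the intervals ignore.

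PGD, of the oxidative pentose phosphate pathway, had the same site in both lists (chromosome 1, position 10413180, plus strand), at 1.92 in NAT10 KD and 5.55 in WT. The thioredoxin reductase gene TXNRD1 also did (chromosome 12, position 104265323, plus strand), at 1.83 in NAT10 KD and 2.84 in WT, and its site lies over 3 annotated genes. ACLY, SCD and GLDC, which make cytosolic acetyl-CoA, desaturate fatty acids and break down glycine, were in both lists at different positions. Their highest scores were 1.42 in NAT10 KD and 1.43 in WT for ACLY, 1.34 in NAT10 KD and 1.71 in WT for SCD, and 1.83 in NAT10 KD and 1.61 in WT for GLDC. The highest scores of these neighbours were 11.1 for PARK7, a protein of the oxidative stress response, and 3.38 for the serine synthesis gene PSPH in NAT10 KD. In WT they were 6.81 for TALDO1, a transaldolase of the pentose phosphate pathway, and 5.55 for PGD.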

How the data were processed

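The authors deposited 1 site list per genotype. Each site has a score from the authors, named in the file headers without a formula. The lowest, 1.30173 in NAT10 KD and 1.30155 in WT, lies just above 1.30103, the −log10 of 0.05. Per the submitters' processing notes, fastp 0.21.1, STAR 2.7.8a, SAMtools 1.12 and hg38 were used. Neither the site caller nor the use of the input, of molecular identifiers or of pooled replicates was given in the sources used here. Whether replicates were separate cultures is not stated in the labels.

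Members and pathway lists were chosen with earlier results of these data known. A site was 1 base, printed 1-based, and was shared when its position and strand matched exactly (0 bp). Genes were matched by symbol or synonym to the RefSeq table of GRCh38.p14, the assembly of hg38: 935 of 950 NAT10 KD and 993 of 1005 WT sites, and all 39 member genes. Of the member sites, 24 in NAT10 KD and 23 in WT were in genes whose strand RefSeq's start windows give, and 24 and 23 lay on it. These windows run from 250 bases before to 50 after a start, and bases were read from them alone, with up to 14 flanking bases. Every member is named, with full positions for genes in both lists or with several sites and for the 4 highest scores per subset and list. Of neighbouring pathway genes, those in both lists and the 2 highest scores per list are named, except 1 gene that is not reported here. No test across genes was made: shares carry exact Clopper-Pearson and ratios exact binomial 95% intervals. Functions were tested on simulated data first. Python 3.11.15, pandas 2.3.3, NumPy 2.4.6, SciPy 1.17.1 and matplotlib 3.10.9 were used.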

Additional observations from a re-analysis of the deposited data

How the results depend on the processing

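Of 14 alternative values from the planned settings, 11 stayed within the 95% interval of the reported value. The ratio of sites ranged from 0.846 by genes to 1.5 with a score minimum of 1 above the lowest score. There, 2 of 8 distinct sites were in both lists (25.0%), and the median position in WT was 0.249% of the span over 4 sites; fewer sites remained by construction. Without genes that have pseudogenes named after them, 0 of 35 distinct sites were in both lists. Of 20 values from settings chosen after seeing the data, 18 stayed within the interval. Within 100 bases of the start lay 30.8% of NAT10 KD sites, and at the score minimum all 4 WT sites (100%) and 4 of 6 NAT10 KD sites (66.7%) lay within 250 bases, against 25.4% of all NAT10 KD and 26.4% of all WT sites. The share within 250 bases of the start was otherwise 44.4% to 53.8% in NAT10 KD and 11.8% to 24% in WT. In WT, 11.1% of sites lay within 100 bases and 25.9% within 500 bases. The counts of values that stayed cover the member genes only, whose intervals are wide. Several shares over the whole lists moved outside their narrower intervals. From the nearest annotated start, 17.3% of all NAT10 KD and 16.7% of all WT sites lay within 250 bases. Of all distinct sites, 9.17% were shared at the score minimum and 4.58% without genes that have pseudogenes named after them. No paired analysis was possible because the lists carry no replicate values, and for that reason no replicate could be left out. Position along exons was not run.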
